A study of Danio rerio with 6 samples.

Results

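The genes described are 7 leukocyte markers, read in RNA sequencing of cells that had been sorted for a sox10:dsRed reporter from zebrafish (Danio rerio) at 6 days post fertilization. They are spi1b, lcp1, coro1a, ptprc, mpeg1.1, mpx and lyz, and all 7 were found among the 27726 genes of the table. The rule names them by Ensembl identifier, as well-known markers of white blood cells, and uses no measured value. They were, however, chosen with earlier results of these data known. The tested libraries were 3 from shoc2-/- larvae made with CRISPR/Cas9 (titled D22), and they were set against 3 from wild-type larvae (titled WT). All 6 carried the same reporter, which marks cells by sox10, a transcription factor of the neural crest, with a red fluorescent protein. The labels do not say how many larvae made up a library or whether libraries came from separate clutches or sorts, so every p-value measures only the spread between these libraries, which may be technical.

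Leukocytes arise from mesodermal blood-forming tissue, whereas the pigment cells, glia and peripheral neurons that carry sox10 trace back to the neural crest or to sox10-positive precursors. Larval zebrafish have innate immune cells early: macrophages, which engulf debris and microbes, and neutrophils, which carry granules of antimicrobial enzymes. Shoc2 acts as a scaffold in signalling from RAS to ERK, and the study asked how transcripts of the sorted cells differ in its absence. In sorted bulk RNA, fewer cells of a type and less RNA per cell cannot be told apart.

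Reads assigned to genes numbered from 20088591 to 21802683 per library, and 20463 genes passed the filter on low values, among them all 7 markers. The gene of the reporter, sox10, stood at 13953, 30212 and 27904 normalized counts in shoc2 mutants, against 25782, 8573 and 14620 in wild type. No unsorted library is among the samples, so these values do not measure how pure a sort was. Normalized counts are reads divided by 1 scaling factor per library, and they are not corrected for transcript length, so levels are compared between libraries and not between genes. The shoc2 transcript was present in both genotypes, at 844, 798 and 673 normalized counts in shoc2 mutants and 1194, 959 and 1083 in wild type. The genotypes did not overlap for shoc2, at -0.48 (SE 0.147) on the log2 fold change scale, but with a limma adjusted p of 0.636 the difference did not pass the threshold of 0.05 over all genes.

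The leukocyte markers were read in every sorted library. Genotype accounted for at most 17.3% of the variance of a marker's log2 values, and the rest lay between libraries of the same genotype. Shoc2 mutant replicate 1 was the lowest library for 6 of the 7 genes, and shoc2 mutant replicate 2 was among the 2 highest for all 7. Wild-type replicate 3 was the highest library for 4 genes and among the 2 highest for 6. None of the 7 passed an adjusted p under 0.05 between shoc2 mutants and wild type, where limma called 1 of 20463 genes. The 3 mutant values overlapped the 3 wild-type values for every marker, while 10.6% of all genes did not overlap.

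**Figure D1:**
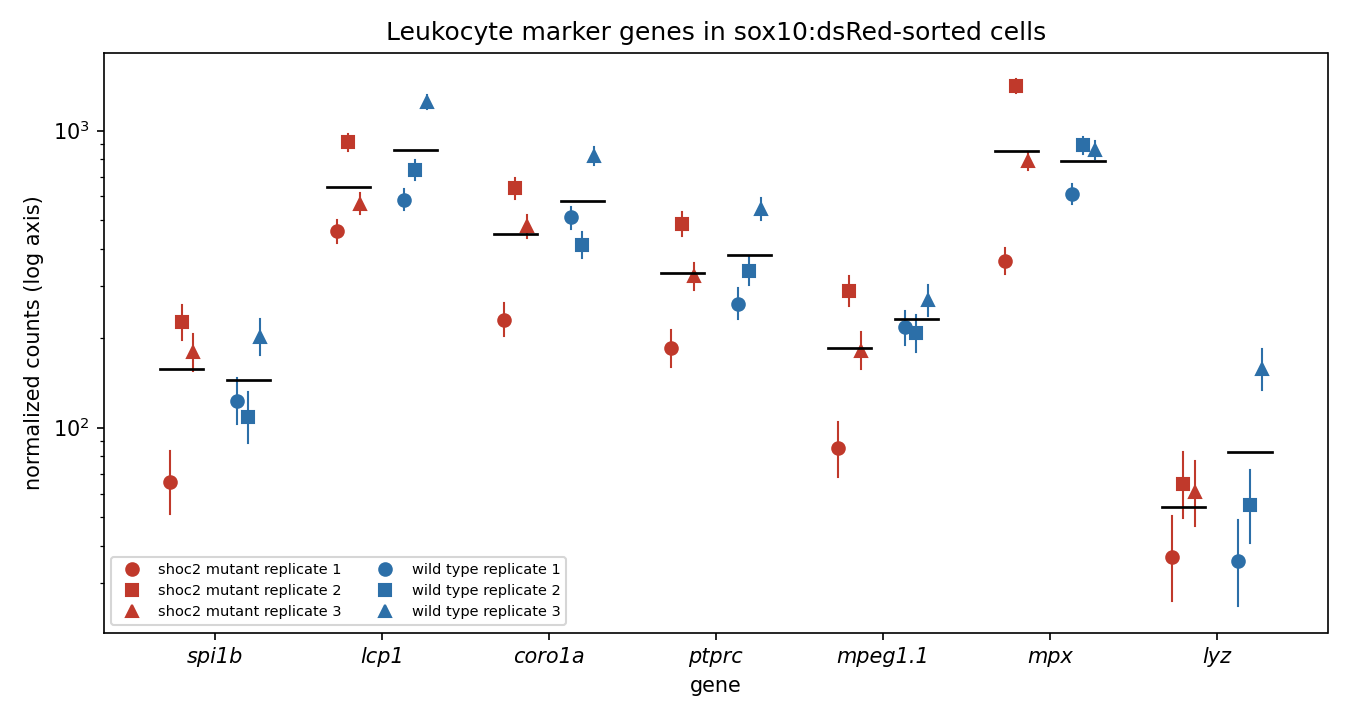
Normalized counts of the 7 marker genes (log axis) in each library, with shoc2 mutants in red and wild type in blue, left and right within each gene. Symbols give the replicate, thin bars the exact 95% Poisson interval of the count and black lines the group mean (n = 3). Mutant replicate 1 is lowest for every gene except lyz, where wild-type replicate 1 is lower.

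The transcription factor of the set is spi1b (ENSDARG00000000767), which encodes Pu.1, a factor that directs blood precursors to the myeloid lineage. It had 65.8, 227 and 179.9 normalized counts in shoc2 mutants, against 123, 109 and 202 in wild type. Mutants thus held both the lowest and the highest library. The group means were 157.5 ± 82.9 in shoc2 mutants and 145 ± 50.3 in wild type (SD, n = 3 each). The log2 fold change was -0.0026 (SE 0.45), with a 95% interval from -1.02 to 1.02 and a limma Benjamini-Hochberg adjusted p of 0.9996.

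lcp1 (ENSDARG00000023188) encodes L-plastin, an actin-bundling protein used as a marker of all leukocytes in zebrafish. It had 457, 914 and 568 normalized counts in shoc2 mutants and 586, 738 and 1250.3 in wild type. Replicate 3 of wild type stood above all others, and mutant replicate 2 came next. The means were 646 ± 238 in shoc2 mutants and 858 ± 348 in wild type (SD, n = 3 each), and the log2 fold change of -0.40 had an SE of 0.317, a 95% interval from -1.11 to 0.32 and a limma adjusted p of 0.96.

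coro1a (ENSDARG00000054610) encodes coronin 1A, which binds actin at the leukocyte cortex and acts in migration and phagocytosis. It had 231, 638 and 475 normalized counts in shoc2 mutants, against 509.7, 412 and 819 in wild type. The value of mutant replicate 1 was below every other library, while the remaining mutants lay inside the wild-type range. The log2 fold change was -0.43 (SE 0.375, 95% interval -1.28 to 0.42), with a limma adjusted p of 0.964.

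ptprc (ENSDARG00000071437) encodes Cd45, the receptor-type tyrosine phosphatase found on the surface of leukocytes. It had 186, 486 and 323 normalized counts in shoc2 mutants and 262, 338 and 544 in wild type. The order of libraries was that of the summed level of all 7, with mutant replicate 1 at the bottom and wild-type replicate 3 at the top. The log2 fold change was -0.24 (SE 0.369, 95% interval -1.07 to 0.60), with a limma adjusted p of 0.981.

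The macrophage marker mpeg1.1 (ENSDARG00000055290) encodes a perforin-like protein of phagocytes whose promoter is widely used to label zebrafish macrophages. It had 85.1, 288 and 182 normalized counts in shoc2 mutants, against 217, 208 and 269 in wild type. The wild-type libraries lay close together, and the mutants spread on both sides of them. The means were 185 ± 101.7 in shoc2 mutants and 231 ± 32.8 in wild type (SD, n = 3 each). Its log2 fold change of -0.48 (SE 0.389, 95% interval -1.36 to 0.40) was the one farthest from 0 among the 7 and had a limma adjusted p of 0.9603.

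The neutrophil marker mpx (ENSDARG00000019521) encodes myeloperoxidase, the enzyme of neutrophil granules that makes hypochlorous acid. It had 365, 1410.4 and 790.4 normalized counts in shoc2 mutants and 612, 892 and 859 in wild type. As for mpeg1.1, the mutants spanned the wild-type values, from well below to well above. The means were 855 ± 526 in shoc2 mutants and 788 ± 153 in wild type (SD, n = 3 each), and the log2 fold change was -0.07 (SE 0.413, 95% interval -1.004 to 0.87) with a limma adjusted p of 0.994. The group means and the fold change point in opposite directions because the first are on the linear scale and the second on the log2 scale.

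lyz (ENSDARG00000057789) encodes lysozyme C, a granule enzyme that breaks bacterial cell walls and is expressed by zebrafish neutrophils and some macrophages. It was the least read of the set, with 36.7, 64.7 and 60.6 normalized counts in shoc2 mutants and 35.6, 54.9 and 158 in wild type. Wild-type replicate 3 stood alone at the top, and the other 5 libraries lay between 35.6 and 64.7. The log2 fold change was -0.36 (SE 0.523, 95% interval -1.55 to 0.82), with a limma adjusted p of 0.981.

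Across all genes tested, limma called 1 of 20463 at an adjusted p under 0.05, or 0.00489%, and it called 0 of the 7 markers. At an unadjusted p under 0.05 limma had 5.8% of all genes and again 0 of the 7. edgeR's quasi-likelihood test on the recovered reads called 0 genes and had 6.02% at an unadjusted p under 0.05, and DESeq2 called 0.757% and had 6.42% at an unadjusted p under 0.05. Both had 0 of the 7 on either measure. Values of the 2 genotypes did not overlap for 10.6% of all genes and for 0 of the 7 markers. The median log2 fold change was -0.36 over the 7 markers and 0.0078 over all genes. All 7 point estimates were below 0, against 48.5% of all genes, but that of spi1b turned above 0 with equal totals as the scaling and those of spi1b and mpx with edgeR and DESeq2. The 7 genes also varied together between libraries, so their directions are not separate observations. The lower ends of the 95% intervals lay between -1.55 and -1.004 and the upper ends between 0.32 and 1.02 on the log2 scale, so differences of those sizes were not resolved.

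**Figure D2:**
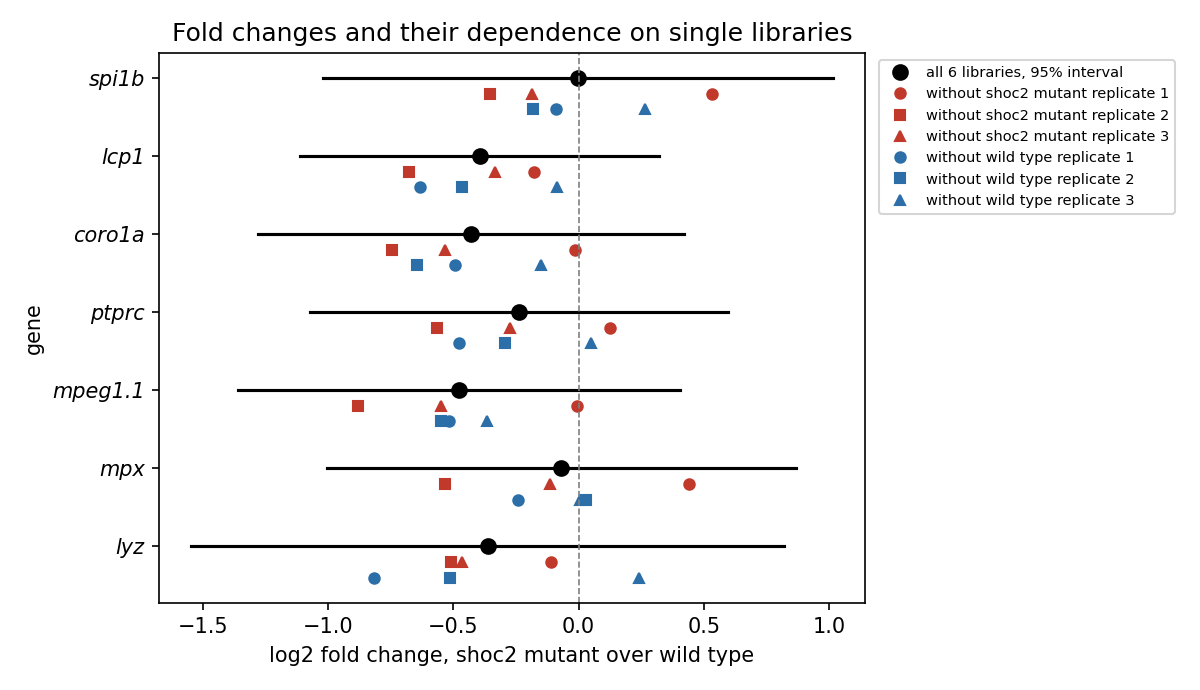
Log2 fold change of each marker gene, shoc2 mutant over wild type, with all 6 libraries (black, 95% interval from limma) and with each library left out in turn (red for a mutant, blue for a wild-type library, symbols by replicate). All 7 estimates are below 0 with all libraries as deposited (spi1b is above 0 with equal totals). Without mutant replicate 1, 4 are below 0 and 3 above, and without wild-type replicate 3, 3 are below 0 and 4 above.

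These estimates moved with single libraries. Without shoc2 mutant replicate 1, the median log2 fold change of the 7 genes was -0.0057, with spi1b at 0.53, mpx at 0.44 and ptprc at 0.12. Without wild-type replicate 3 the median was 0.0043, and lyz stood at 0.24. Without shoc2 mutant replicate 2 the median was -0.57. In that fit lcp1 (-0.68) and mpeg1.1 (-0.88) no longer overlapped between genotypes and mpeg1.1 had an unadjusted limma p of 0.0327, but both had an adjusted p of 0.9999. Fewer libraries overlap less easily, and the share of all genes without overlap in that fit is not given here. The 10.6% given above holds for 3 against 3 libraries. No gene of the set passed the adjusted threshold with any library left out, and the share of all genes called in those fits is not given here.

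The spread within a genotype was larger than counting error for each gene. Among shoc2 mutants the highest library stood above the lowest by 3.87-fold for mpx, 3.45-fold for spi1b, 3.39-fold for mpeg1.1, 2.76-fold for coro1a, 2.62-fold for ptprc, 2.00-fold for lcp1 and 1.76-fold for lyz. Among wild-type libraries the same ratio ran from 1.29-fold for mpeg1.1 to 4.43-fold for lyz. The coefficient of variation was 27.9 to 61.5% in shoc2 mutants and 14.2 to 79.35% in wild type, whereas counting error alone gives 3.76 to 13.55%. For mpx, the exact 95% Poisson interval was 329 to 403 normalized counts in mutant replicate 1 and 1337 to 1487 in mutant replicate 2. Such intervals cover counting error only.

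The genes were also more variable than most. The residual SD, which is the spread of log2 values around the genotype means, had a median of 0.641 over the 7 markers and 0.283 over all genes tested. Among the 11044 genes whose mean lay between that of lyz (68.4 normalized counts) and that of mpx (821), the median was 0.263. Against those genes the markers ranked from the 89.1th percentile (lcp1) to the 97.6th (lyz). Such spread was not particular to the markers. In the gene lists described below, the median residual SD was 0.634 for macrophage, 0.626 for erythroid and 0.617 for lymphocyte genes. It was 0.614 for genes of sox10-derived cells and 0.606 for neutrophil genes. Other leukocyte genes had 0.556, thrombocyte genes 0.53 and endothelial genes 0.384. Genotype accounted for 0.0% (spi1b) to 17.3% (mpeg1.1) of the variance of a marker's log2 values, and the median over all genes was 12.7%.

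The markers varied together from library to library. Pearson's r of log2 values over the 6 libraries was above 0 in all 21 pairs of genes, with a median of 0.866 and a range from 0.512 (mpx with lyz) to 0.946 (lcp1 with ptprc). Spearman's rho had a median of 0.771 and a range from 0.486 to 0.943. These are descriptions: the points share a library, its scaling and its sort. After the genotype means were subtracted, the median Pearson's r was 0.857. Without the 2 libraries farthest from the middle, mutant replicate 1 and wild-type replicate 3, the median over the remaining 4 libraries was 0.732 and the range 0.188 to 0.997, with all 21 pairs still above 0. When each gene was set against the mean standardized profile of the other 6, r was highest for ptprc, at 0.988, and lowest for lyz, at 0.757.

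**Figure D3:**
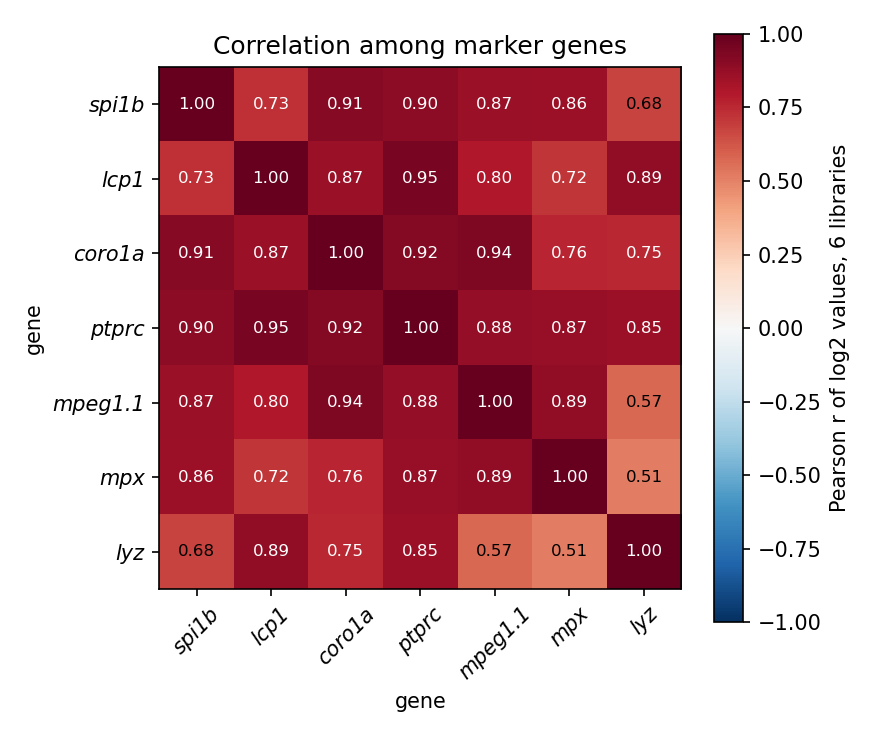
Pearson's r of log2 values between each pair of marker genes over the 6 libraries (colour scale from -1 to 1). All 21 pairs are positive, and the lowest values, 0.512 and 0.575, are those of lyz with mpx and with mpeg1.1.

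Summed over the 7 genes, the level was 1426, 4028 and 2579 normalized counts in shoc2 mutants, against 2345, 2751 and 4101 in wild type. The mutant range reached below the wild-type one and ended just under its top, with means of 2678 ± 1304 in shoc2 mutants and 3065 ± 919 in wild type (SD, n = 3 each). The 3 libraries with fewer reads (shoc2 mutant replicate 2 and wild-type replicates 2 and 3) had sums of 4028, 2751 and 4101. The 3 with more reads (shoc2 mutant replicates 1 and 3 and wild-type replicate 1) had 1426, 2579 and 2345. The first 3 had 20088591 to 20152291 reads and the second 3 had 21575563 to 21802683, a split made with the data in view. For lcp1, ptprc and mpx all 3 libraries with fewer reads were above all 3 with more reads, 3 of 7 genes, where 5.23% of all genes had that order. No marker had the opposite order, which 4.69% of all genes had. The 7 genes vary together, so the 3 are not separate observations. As the split was made with these values in view, the 5.23% does not measure how unusual the 3 are. The part of library depth in the result was not tested. With the depth class as a covariate in limma, the median log2 fold change of the markers was -0.061, with spi1b at 0.22, mpx at 0.25 and ptprc at 0.04, and no adjusted p was below 0.9975. Within the libraries with more reads, mutants minus wild type gave -0.80 for mpeg1.1 and -0.19 for mpx on the log2 scale. Within those with fewer reads the same differences were 0.29 and 0.69. spi1b, coro1a and ptprc changed sign in the same way. lcp1 stayed below 0 in both (-0.20 and -0.07), and lyz went the other way (0.40 and -0.52). The differences within more reads rest on wild-type replicate 1 alone for wild type. Those within fewer reads rest on mutant replicate 2 alone for mutants.

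Ratios between markers within a library do not depend on its scaling factor, and 5 were computed, the last 3 of them (spi1b over mpeg1.1, ptprc over coro1a and lcp1 over coro1a) chosen after the deposited values had been looked at. mpeg1.1 over mpx, macrophage over neutrophil marker, was 0.2334, 0.2045 and 0.23 in shoc2 mutants and 0.355, 0.2331 and 0.313 in wild type. On the log2 scale the means were -2.16 ± 0.108 in shoc2 mutants and -1.75 ± 0.311 in wild type (SD, n = 3 each), a difference of -0.41. Mutant replicate 1 and wild-type replicate 2 touched, and the exact two-sided permutation p was 0.2 (0.5 after Benjamini-Hochberg adjustment over the 5 ratios).

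spi1b over mpeg1.1 was 0.773, 0.787 and 0.9897 in shoc2 mutants, against 0.566, 0.523 and 0.752 in wild type. It was the 1 ratio of the 5 whose genotypes did not overlap, with a log2 difference of 0.48. The margin was narrow, with 0.773 in mutant replicate 1 and 0.752 in wild-type replicate 3. For spi1b and mpeg1.1 there were 68 and 88 reads in the first library and 200 and 266 in the second. In the first, spi1b had an exact 95% Poisson interval of 51.06 to 83.35 normalized counts. Counting error of the ratio itself was not computed. The exact two-sided permutation p of this ratio, 0.1, is the smallest that 3 against 3 libraries allow. It was 0.5 after adjustment over the 5 ratios. Neither p-value accounts for this ratio having been chosen after the values were seen. Among tested single genes 10.6% did not overlap either.

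lyz over mpx, both granule enzymes, was 0.101, 0.0459 and 0.0767 in shoc2 mutants and 0.0582, 0.0615 and 0.1835 in wild type, where replicate 3 stood apart. Its exact permutation p was 0.7, that of ptprc over coro1a 0.5 and that of lcp1 over coro1a 0.9, which are 0.875, 0.833 and 0.9 after adjustment. As a share of the summed level, ptprc was the steadiest of the genes, between 12.05 and 13.02% in shoc2 mutants and 11.2 and 13.3% in wild type.

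**Figure D4:**
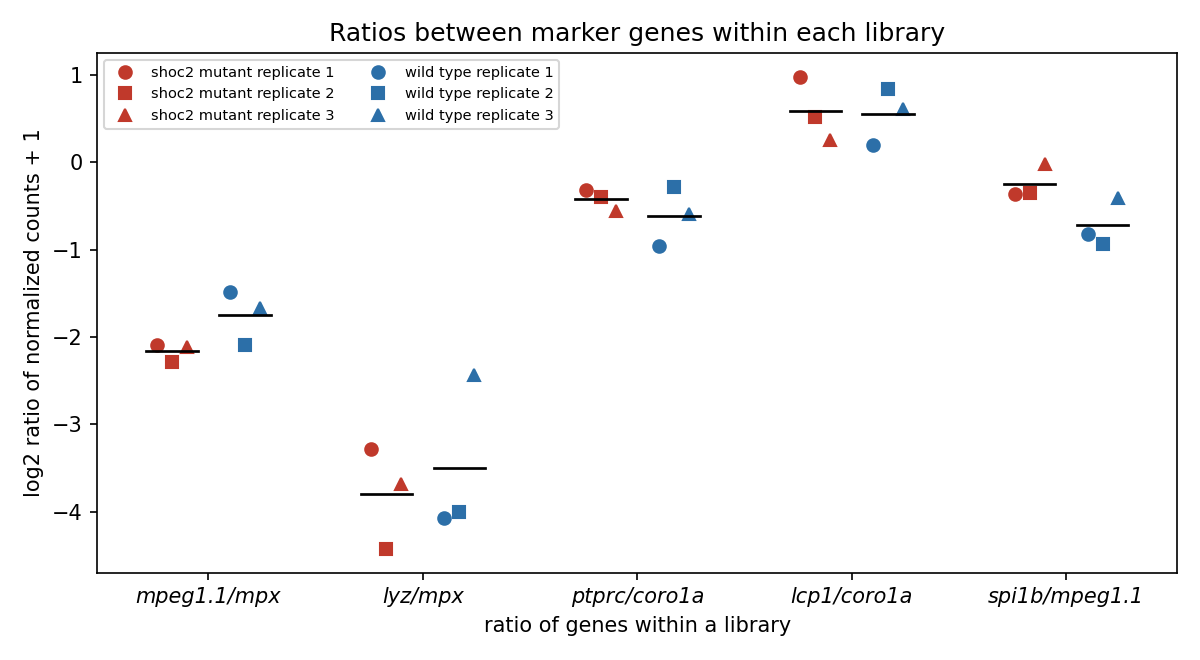
Log2 ratio of 2 marker genes within each library, shoc2 mutants in red left of wild type in blue, with black lines at the group means (n = 3). The spi1b to mpeg1.1 ratio is higher in all 3 mutants than in all 3 wild-type libraries, and the other 4 ratios overlap. The margin is narrow (-0.367 in mutant replicate 1 and -0.41 in wild-type replicate 3).

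Other leukocyte genes, taken from lists of known markers and paired with identifiers by symbol, followed the library pattern of the markers to differing degrees. None of them had a difference called by limma, and counts from edgeR and DESeq2 are not given for the lists. Of 13 tested genes of leukocytes in general, 0 passed the adjusted threshold in either direction, where limma called 1 of 20463 genes (0.00489%). A count of 0 in a short list is thus near the share over all genes, here and in the lists below. The median log2 fold change was -0.18. Their summed level was 2172, 3717 and 2878 normalized counts in shoc2 mutants and 2864, 2891 and 3897 in wild type. Mutant replicate 1 was the lowest library for 9 of the 13. Its most abundant genes followed the pattern less closely than most of the list. itgb2, the integrin beta chain of leukocytes, had 238, 499.9 and 267 normalized counts in shoc2 mutants, against 437, 363 and 342 in wild type. arhgdig had 452.5, 731 and 440.0 in shoc2 mutants, against 364.5, 678 and 719 in wild type, and tagapa had 701, 751 and 817.5 in shoc2 mutants, against 1001, 568 and 1112 in wild type. For itgb2, arhgdig and tagapa the log2 fold changes were -0.26, -0.10 and -0.18 and the limma adjusted p-values 0.967, 0.9904 and 0.981.

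Of 15 tested identifiers of the macrophage list, 0 passed in either direction (0.00489% of all genes did), and the median log2 fold change was -0.029. The list summed to 1280, 2532 and 2134 normalized counts in shoc2 mutants and 1915, 1835 and 3158 in wild type. csf1ra, a receptor that macrophages need and that also marks yellow pigment cells, had 272, 499.9 and 359.8 normalized counts in shoc2 mutants and 329.8, 307 and 577 in wild type (log2 fold change -0.09, limma adjusted p 0.991). cd68, a lysosomal protein of macrophages, had 257, 493 and 371 normalized counts in shoc2 mutants, against 420.2, 429 and 523 in wild type, with a limma adjusted p of 0.955. irf8, the transcription factor required for macrophage formation, had 212, 167 and 200.4 in shoc2 mutants and 316, 205 and 486 in wild type. It differed by -0.71 (SE 0.296) on the log2 scale, at an unadjusted limma p of 0.0395 and an adjusted p of 0.823. Several of these identifiers share the symbol mfap4, and reads may be split among such copies.

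Of 12 tested identifiers of the neutrophil list, 0 passed in either direction (0.00489% of all genes did), and the median log2 fold change was 0.028. The list summed to 3359, 8600.0 and 5771 normalized counts in shoc2 mutants and 5186, 5390.0 and 6469 in wild type, so that mutants held the lowest and the highest library, as for mpx. mmp9, a gelatinase that neutrophils and other cells release, had 1148, 3786 and 1862 normalized counts in shoc2 mutants and 2064, 1969.8 and 2405 in wild type (limma adjusted p 0.992). npsn, a zebrafish neutrophil protease gene, had 254, 1092 and 587 in shoc2 mutants, against 409, 710.4 and 613.5 in wild type (limma adjusted p 0.997). nccrp1 had a log2 fold change of 0.06 and a limma adjusted p of 0.992.

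**Figure D5:**
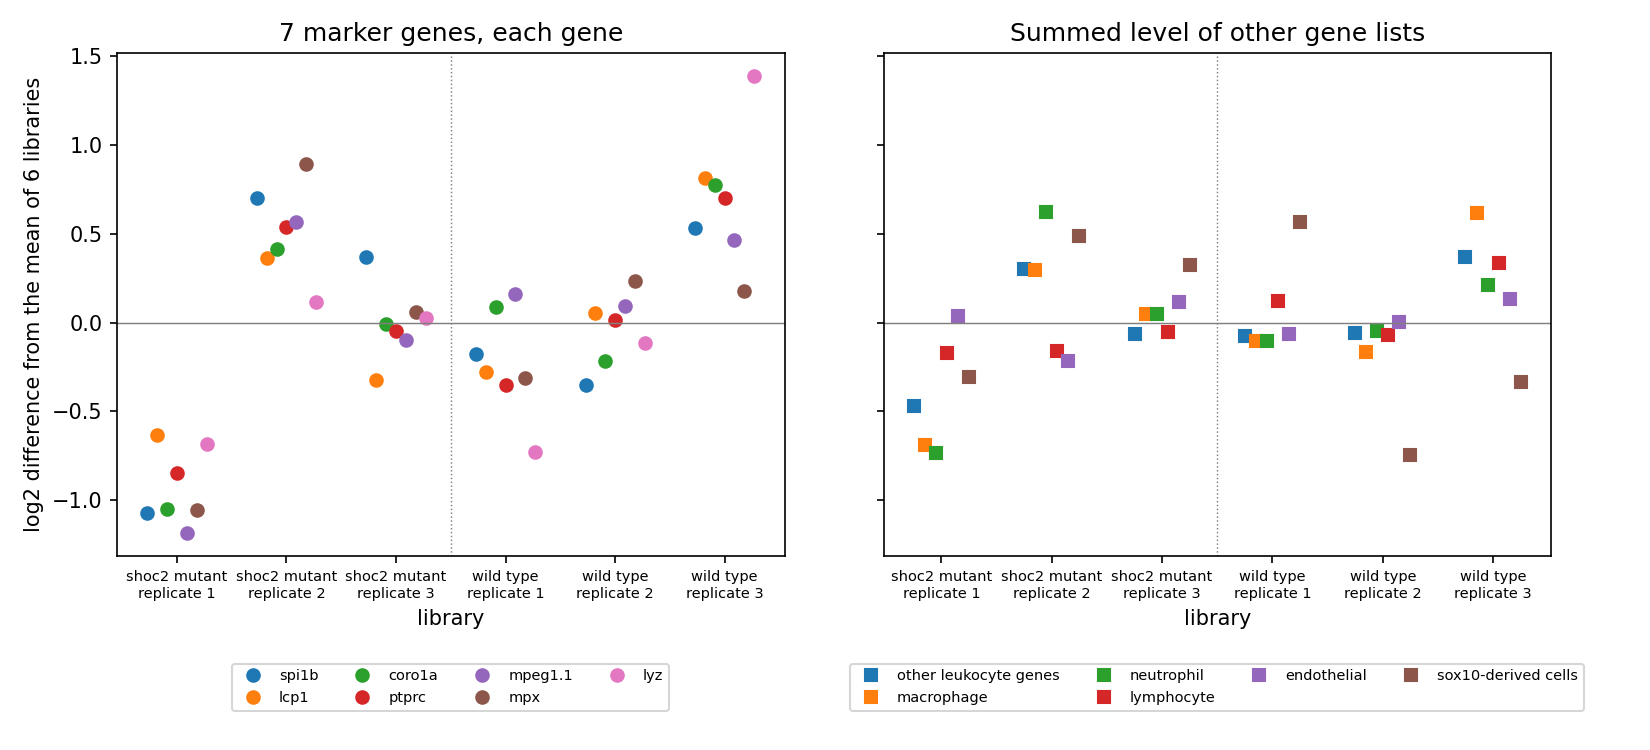
Log2 difference of each library from the mean of the 6 libraries, for each of the 7 marker genes (left) and for the summed normalized counts of 6 other gene lists (right), shoc2 mutants left of wild type in each panel. Mutant replicate 1 is the lowest library for the general leukocyte, macrophage and neutrophil lists, but not for the endothelial and sox10-derived lists. For the lymphocyte list it is lowest by a small margin (1392 against 1404 in mutant replicate 2), where runx3 alone had 1033 and 881. The thrombocyte list, not drawn, is also lowest in mutant replicate 1 (483.5 against 505.7 in wild-type replicate 2). Most of that 483.5 came from nbeal2, f5 and fga (209.8, 130.5 and 88.0). The erythroid list, not drawn, is lowest in wild-type replicate 1 (4013).

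As a measure of likeness, Pearson's r of each gene with the mean standardized profile of the 7 markers was taken over the 6 libraries. Its median was 0.80 for the general leukocyte list, 0.797 for the macrophage list and 0.757 for the neutrophil list. It was 0.563 for 10 lymphocyte genes, 0.484 for 11 erythroid genes and 0.456 for 7 thrombocyte genes. It was 0.293 for 12 endothelial genes, 0.009 for 11 genes of sox10-derived cells and -0.073 over all genes tested. The genes of sox10-derived cells summed to 46240, 80220 and 71630 normalized counts in shoc2 mutants and 84710, 34120 and 45320 in wild type, with sox10, pmela and mbpa as the most abundant. pmela, a melanosome protein gene, had 8930.5, 5553.5 and 9928 normalized counts in shoc2 mutants and 6831, 5193 and 5505 in wild type, and mbpa, a myelin protein gene, had 10740, 19519 and 15004 in shoc2 mutants and 33409, 12621 and 14838 in wild type. Among 16691 genes whose mean reached 50 normalized counts, 111 or 0.665% had r of at least 0.9 and 131 or 0.785% had r of at most -0.9. The 5 most alike were trib1 (r = 0.986), zgc:64051 (0.984), ADGRF1 (0.982), tnk1 (0.98) and caspa (0.979). They were taken as the highest of 16691 genes over 6 libraries, and how many would reach such r by chance was not computed. trib1, which encodes a pseudokinase, had 146.0, 304 and 253.5 normalized counts in shoc2 mutants and 201, 251 and 347 in wild type. caspa, a zebrafish caspase gene, had 37.7, 93.4 and 75.5 in shoc2 mutants, against 52.9, 68.6 and 101 in wild type.

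Near relatives of 2 markers were read separately. ENSDARG00000043093, a second identifier with the symbol MPEG1, had 105, 147 and 215 normalized counts in shoc2 mutants and 159.6, 85.5 and 186 in wild type. Its r with the profile of the 7 markers was 0.464, while mpeg1.1 had 0.898 with the mean of the other 6, and its log2 fold change was 0.13 (limma adjusted p 0.988). Another identifier with that symbol had 3 reads in all 6 libraries together. epx, an eosinophil-type peroxidase gene related to mpx, had 87.02, 96.5 and 111 normalized counts in shoc2 mutants, against 79.8, 32.7 and 81.9 in wild type. Its mean of 98.2 ± 12.03 in shoc2 mutants lay above that of 64.8 ± 27.8 in wild type (SD, n = 3 each) without overlap. The difference of 0.70 (SE 0.377) on the log2 scale did not pass, with 0.919 as limma's adjusted p. Its r with the marker profile was 0.049.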

How the data were processed

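The table deposited by the authors holds gene-level values of 6 libraries as a signal in normalized counts, and its name says that they come from HTSeq. FastQC 0.11.7, STAR 2.6, Cuffnorm and the build GRCz11 are named, with no role or order, per the submitters' processing notes. Annotation, strand setting and counting options are not given in the sources used here, so reads shared by near copies or antisense genes could not be set apart. In each deposited column 100% of values were whole multiples of 1 step (tolerance 0.001 reads), and reads were recovered as value over step. The step of wild-type replicate 3 is close to 1 (1.01), where steps and rounding are hard to tell apart, but its values are not rounded. These reads enter only the edgeR, DESeq2, TMM and equal-total alternatives, depths and counting intervals.

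Groups and replicate numbers come from the source names in the labels. Genes with at least 10 normalized counts in at least 3 libraries were kept. log2(normalized count + 1) was compared with limma 3.58.1 (R 4.3.3, mean-variance trend, no covariate), and p-values were adjusted by Benjamini-Hochberg over all 20463 genes, with a threshold of 0.05. This scale understates the change of low genes. Alternatives were edgeR 4.0.16, DESeq2 1.42.0, other pseudocounts, filters and scalings, a replicate block and leaving out each library; the depth class was added with the data in view. The limma, edgeR and DESeq2 genotype fits were also run on simulated data, with results not given here. The permutation tests, the depth class covariate and the replicate block were not. Deviations from the genotype means were not positively correlated between libraries of equal replicate number (-0.202, -0.0288 and -0.0918). These values cannot show whether such libraries shared a clutch or a sort.

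The 7 markers and all lists were chosen with earlier results of these data known. The gene name table paired 25324 of 27726 identifiers with a symbol; it writes SPI1, MPEG1 and EPX for spi1b, mpeg1.1 and mpx. Of 122 listed symbols 95 were paired, and csf1ra stands on 2 lists. From each list the 3 most abundant genes are named; epx and the other MPEG1 identifiers were singled out after their values were seen. The likeness rule took the 5 genes with the highest r.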

Additional observations from a re-analysis of the deposited data

How the results depend on the processing

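None of the 7 markers passed the adjusted threshold in any of the 18 alternatives tested for each, and their adjusted p-values ran from 0.745 to 0.9999. Over all genes, the main limma fit called 1 of 20463, edgeR 0 and DESeq2 0.757%. Shares called in the other alternatives are not given here, so 0 of 7 says little about the markers. The replicate block, 1 of the 18, gave the same fold changes as the main fit. Of 227 recomputed values 201 kept their direction and side of the threshold or moved by less than the spread of libraries, and 27 changed sign, all of them differences that were not called. On the log2 scale, spi1b changed sign with a pseudocount of 8 (0.0058), equal totals (0.0033), edgeR (0.116), DESeq2 (0.118), the depth class covariate (0.217) and within libraries with fewer reads (0.61). mpx did so with edgeR (0.116), DESeq2 (0.119), the depth class covariate (0.25) and within libraries with fewer reads (0.69), and ptprc with the covariate (0.043) and within libraries with fewer reads (0.18). coro1a (0.137) and mpeg1.1 (0.286) changed sign within libraries with fewer reads, and lyz (0.398) within those with more. With 1 library left out, spi1b ran from -0.35 to 0.53, ptprc from -0.57 to 0.12, mpx from -0.53 to 0.44, lyz from -0.82 to 0.24 and the log2 ratio of lyz to mpx from -0.58 to 0.24. The last 2 sign changes, counted among the 201 as well, were smaller than the spread of libraries: the median of the 7 genes without wild-type replicate 3 (0.0043) and their summed level without shoc2 mutant replicate 1 (0.114). The number of markers without overlap ran from 0 to 2, and the 2 were found only without shoc2 mutant replicate 2, where fewer libraries are compared. The cause was not tested. Depth limits lyz most, at 37 to 156 reads a library.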

Other observations

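Of 10 tested genes of the lymphocyte list 0 passed the adjusted threshold in limma, against 0.00489% of all genes. The median log2 fold change was -0.92. In all, 4 genes did not overlap between genotypes and were lower in all 3 shoc2 mutants (10.6% of all genes tested did not overlap). At an unadjusted limma p under 0.05 the same 4 were found, against 5.8% of all genes. Both counts rest on the same values, and the 4 genes share the same libraries, so these are not separate observations. The 4 are named here after their values were seen. lck, a kinase of T cell receptor signalling, had 17.4, 49.3 and 28.0 normalized counts in shoc2 mutants and 80.8, 52.8 and 114 in wild type, with a log2 fold change of -1.41 (limma adjusted p 0.652). zap70, a second such kinase, had 28.0, 21.6 and 21.4 in shoc2 mutants, against 43.3, 52.8 and 55.6 in wild type (adjusted p 0.649). cd28, a co-stimulatory receptor, had 21.3, 38.0 and 39.1 in shoc2 mutants, against 75.0, 65.4 and 64.7 in wild type (adjusted p 0.646). rag2, a subunit of the recombinase that joins receptor gene segments, had 20.3, 35.9 and 13 in shoc2 mutants and 40.4, 36.9 and 72.8 in wild type (adjusted p 0.823). Its partner rag1 had 129, 245 and 163 in shoc2 mutants and 305, 187 and 519.5 in wild type, which overlapped. runx3, also on the list, had 1033, 881 and 1122 in shoc2 mutants and 1055, 1030.3 and 995 in wild type. Other genes of the list had higher mean values in mutants. pax5, a B cell transcription factor, had 81.2, 30.8 and 40.1 in shoc2 mutants and 28.8, 28.5 and 50.5 in wild type (log2 fold change 0.41, adjusted p 0.967), and ccl38.6 had a log2 fold change of 0.43 (adjusted p 0.974). cd79a, of the B cell receptor, did not pass the filter on low values and had 28.0, 6.2 and 19.6 in shoc2 mutants, against 4.8, 5.3 and 9.1 in wild type. cd8a and cd79b, of cytotoxic T cells and B cells, had no more than 6.1 normalized counts in any library.

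One of the identifiers named lect2, ENSDARG00000090889, had 27.1, 51.3 and 55.0 normalized counts in shoc2 mutants and 227, 145 and 358 in wild type. Its log2 fold change was -2.39, with an unadjusted limma p of 0.00019 and an adjusted p of 0.2095. Its values were seen before it was chosen. The other lect2 identifier, ENSDARG00000033227, had 54.1, 164 and 84.8 in shoc2 mutants and 52.9, 65.4 and 83.9 in wild type, with a log2 fold change of 0.45. The reads of such copies may be split between them. Of the 11 erythroid, 7 thrombocyte and 12 endothelial genes tested, 0 passed the adjusted threshold in limma, against 0.00489% of all genes. hbae3, a globin gene, had 3839, 4436 and 3369 normalized counts in shoc2 mutants and 2161, 2876 and 6823 in wild type. slc11a2, an iron transporter gene, had 543, 649.8 and 630.1 in shoc2 mutants, against 431, 478 and 429 in wild type, without overlap (log2 fold change 0.44, unadjusted limma p 0.0138, adjusted 0.669). tspo, also on the erythroid list, had a log2 fold change of 0.08. fga, a fibrinogen gene on the thrombocyte list, had 88.0, 139 and 62.5 in shoc2 mutants, against 16.3, 44.3 and 47.5 in wild type, also without overlap (log2 fold change 1.46, unadjusted limma p 0.0132, adjusted 0.656). nbeal2, of the same list, had a log2 fold change of -0.36. On that list 2 genes had a log2 fold change above 0 and 5 below, with a median of -0.36. Of its 7 genes 2 did not overlap, against 10.6% of all genes, and the second, itga2b, was lower in shoc2 mutants. It had 6.8, 17.5 and 10.3 there, against 21.2, 26.4 and 23.2 in wild type (log2 fold change -1.06, limma adjusted p 0.874). gp9 (-1.07) and mpl (-1.02) were also below 0, but both overlapped between genotypes, each with a limma adjusted p of 0.951. Their values were low. gp9 had 3.9, 10.3 and 11.2 in shoc2 mutants and 10.6, 12.7 and 38.4 in wild type. For mpl they were 7.7, 12.3 and 2.8 in shoc2 mutants and 10.6, 14.8 and 19.2 in wild type. gp1bb stood at -0.19 (limma adjusted p 0.983). itga2b, gp9, mpl and gp1bb were picked after their values were seen. f5, a clotting factor gene, had 130.5, 347 and 255 in shoc2 mutants and 187.5, 180.5 and 238.5 in wild type. kdrl, an endothelial receptor gene, had 741, 525 and 882 in shoc2 mutants, against 538.5, 874 and 656 in wild type, and the endothelial genes cdh5 and flt4 had log2 fold changes of -0.18 and 0.12. Of the 12 endothelial genes 2 did not overlap, against 10.6% of all genes. stab1 was lower in shoc2 mutants (log2 fold change -0.50) and plvapa higher (0.98), each with a limma adjusted p of 0.7798. Both were picked after their values were seen.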
